A study of Mus musculus with 6 samples.

Results

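Tal1, Lyl1, Lmo2, Gata2 and Fli1 encode transcription regulators of blood stem cells. The DNA methylation of their 5 loci is described here in LSK cells. These are mouse bone marrow cells without lineage markers that carry Sca-1 and c-Kit, a population rich in blood stem cells and early progenitors. The loci were taken as fixed spans of the mouse build mm9 around named genes, and were chosen with earlier results of these data known. They were chromosome 4, 114705001 to 114790000 (Tal1, 85 kb), chromosome 8, 87215001 to 87240000 (Lyl1, 25 kb), chromosome 2, 103730001 to 103840000 (Lmo2, 110 kb), chromosome 6, 88115001 to 88180000 (Gata2, 65 kb) and chromosome 9, 32210001 to 32370000 (Fli1, 160 kb). Together they held 5802 of the 20451903 CpGs listed, with 994 at Tal1, 526 at Lyl1, 1250 at Lmo2, 1148 at Gata2 and 1884 at Fli1. Whole-genome bisulfite sequencing compared 3 samples from Tet2/3 DKO mice, which lack Tet2 and Tet3, with 3 samples from wild-type (WT) mice. The Tet enzymes oxidise 5-methylcytosine, and the study asked how their loss changes methylation in these cells. The labels call the samples biological replicates and give no age, strain, deleting Cre or number of animals per sample. P-values over samples therefore measure the spread between these samples only. Methylation data hold no check of the surface markers used to sort the cells.

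Tal1 (also called Scl) and Lyl1 are closely related basic helix-loop-helix factors that bind E-box DNA as partners of E proteins such as Tcf3. Lmo2 is a LIM-only adaptor that binds no DNA itself and bridges Tal1 or Lyl1 to GATA factors through Ldb1. Gata2 is the GATA factor of stem and progenitor cells, and Fli1 is an ETS factor. With Erg and Runx1 these proteins occupy shared enhancers in blood progenitors, including enhancers of their own genes, and are often called the heptad. CpG-dense promoters of active genes are usually free of methylation, while active enhancers often show an intermediate level. In RefSeq's gene order (GRCm38.p6) the neighbours are Stil and Pdzk1ip1 for Tal1, Trmt1 and Nfix for Lyl1, Caprin1 and 4931422A03Rik for Lmo2, Rpn1 and Dnajb8 for Gata2, and Kcnj1 and Ets1 for Fli1. Exons and introns on mm9 were not used here.

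Promoter segments of Tal1, Lyl1 and Gata2 are printed from RefSeq (GRCm38.p6), from 250 bases before to 50 bases after a start, on the + strand. They show 2 segments that held no methylated call, the partly methylated first start of Tal1, and the second start of Gata2, which was methylated in 1 sample. Capitals mark the CpGs. Their mm9 positions come from matching the spacing of these CpGs to the CpG positions of the deposited table. The first and second Tal1 starts lay at chr4:114728781-114729080 and chr4:114730166-114730465, the Lyl1 start at chr8:87225106-87225405 and the second Gata2 start at chr6:88148408-88148707.
Tal1 first start: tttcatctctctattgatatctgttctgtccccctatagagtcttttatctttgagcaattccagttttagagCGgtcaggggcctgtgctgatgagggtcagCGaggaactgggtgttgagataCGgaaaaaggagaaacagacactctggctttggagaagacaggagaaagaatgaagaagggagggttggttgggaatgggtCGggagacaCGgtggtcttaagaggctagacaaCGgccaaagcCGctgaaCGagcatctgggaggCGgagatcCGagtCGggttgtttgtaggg
Tal1 second start: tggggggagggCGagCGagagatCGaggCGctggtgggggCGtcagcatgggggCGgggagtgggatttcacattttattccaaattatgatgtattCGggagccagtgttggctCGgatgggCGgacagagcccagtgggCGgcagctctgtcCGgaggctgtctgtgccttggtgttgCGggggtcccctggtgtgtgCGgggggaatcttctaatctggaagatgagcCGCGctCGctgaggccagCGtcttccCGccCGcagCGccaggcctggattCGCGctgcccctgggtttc
Lyl1 start: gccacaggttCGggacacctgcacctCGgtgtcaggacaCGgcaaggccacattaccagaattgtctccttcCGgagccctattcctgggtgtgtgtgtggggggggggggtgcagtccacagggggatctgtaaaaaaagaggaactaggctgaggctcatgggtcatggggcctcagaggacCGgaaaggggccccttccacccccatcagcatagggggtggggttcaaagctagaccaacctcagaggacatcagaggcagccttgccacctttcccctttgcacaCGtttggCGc
Gata2 second start: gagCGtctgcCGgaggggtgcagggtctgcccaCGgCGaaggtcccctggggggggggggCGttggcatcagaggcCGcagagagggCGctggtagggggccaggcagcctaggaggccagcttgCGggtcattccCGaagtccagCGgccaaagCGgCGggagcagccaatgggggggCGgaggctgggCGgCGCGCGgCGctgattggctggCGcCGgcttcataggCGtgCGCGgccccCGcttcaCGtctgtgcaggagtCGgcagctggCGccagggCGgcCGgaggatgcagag
The first Tal1 segment held 11 CpGs, the second 22, the Lyl1 segment 7 and the Gata2 segment 29. The letters GATAA, searched on both strands, occurred in the first Tal1 segment and in none of the other 3, against 25.4% of 32851 RefSeq promoters. The E-box letters CANNTG, which read the same on both strands, occurred in the first Tal1, the Lyl1 and the second Gata2 segments, against 72.3% of all promoters. Matches of either motif were counted whether or not they overlapped another.

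A methylation level is the share of read calls at CpGs that were methylated, in percent. Bisulfite does not separate 5-methylcytosine from 5-hydroxymethylcytosine, so a level is their sum. It is also a mean over a sorted cell population, so a change in the mix of cells and a change within cells cannot be told apart. The mean depth was 4.09 to 5.46 reads per CpG in DKO and 3.46 to 3.56 in WT, and over the 5 loci it was 4.13 to 5.97 in DKO and 3.44 to 3.76 in WT. Mitochondrial cytosines at CpGs read as methylated, a measure of incomplete conversion, made up 1.53% to 1.86% in DKO and 1.21% to 1.37% in WT. The part of these depth and conversion gaps in the results was not tested. The autosomal level was 81.6% ± 0.83 in DKO and 80.8% ± 0.31 in WT (SD, n = 3 each), and the groups overlapped.

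Over whole loci, methylation at Lmo2 and Fli1 was higher in the 3 DKO samples than in any WT sample, while the groups overlapped at Tal1, Lyl1 and Gata2. At Lmo2 the level was 75.9%, 71.5% and 77.9% in DKO replicates 1 to 3, against 70.7%, 68.4% and 66.7% in WT. The difference was 6.53 points (SE 2.23). At Fli1 it was 74.4%, 74.2% and 73.8% in DKO, against 68.9%, 68.9% and 69.6% in WT, a difference of 5.01 points (SE 0.283). The spread within each group at Fli1 was small, 0.31 points in DKO and 0.38 in WT (SD, n = 3 each). For both loci a two-sided exact permutation test gave p = 0.1, the smallest that 3 against 3 samples can give, and 0.25 after adjustment over the 5 loci.

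Tal1 stood at 53.3%, 54.0% and 53.2% in DKO, against 54.6%, 47.6% and 55.7% in WT (p = 1, exact permutation test). Lyl1, the least methylated of the 5, stood at 38.6%, 35.9% and 45.1% in DKO, against 39.2%, 38.2% and 34.4% in WT (p = 0.5, exact permutation test). Gata2 stood at 54.2%, 52.1% and 54.1% in DKO, against 54.2%, 51.4% and 53.2% in WT (p = 0.7, exact permutation test). With every CpG weighted alike, over CpGs read in all samples, the Lyl1 and Gata2 groups did not overlap either. Gata2 then averaged 54.7% in DKO and 52.4% in WT, and Lyl1 45.9% in DKO and 43.6% in WT. The difference between DKO and WT was itself compared between loci in 10 pairs. The gap from Gata2 to Lmo2 was 21.7 points in DKO and 15.7 in WT, that from Gata2 to Fli1 20.7 in DKO and 16.2 in WT, and that from Lyl1 to Lmo2 35.3 in DKO and 31.3 in WT. In these 3 pairs the groups did not overlap (p = 0.1 by the exact permutation test, 0.333 after adjustment over the 10 pairs), and the other 7 pairs overlapped.

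**Figure D1:**
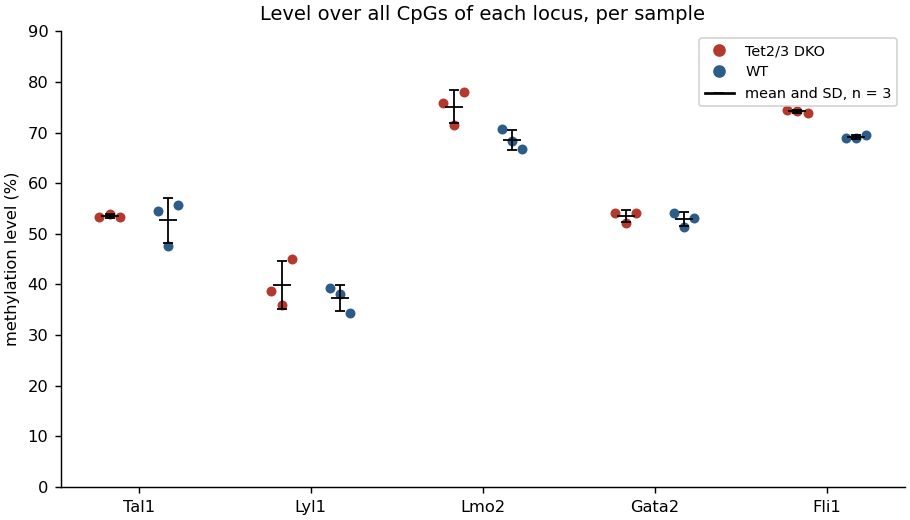
Methylation level over all CpGs of each locus (vertical axis, percent) in the 3 Tet2/3 DKO samples (left of each pair, red) and the 3 WT samples (right, blue), with the mean and SD in black. DKO and WT samples are apart at Lmo2 and Fli1 and overlap at Tal1, Lyl1 and Gata2.

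Most promoter segments placed at Tal1, Lyl1 and Gata2 held no methylated call in either group. Low levels were common among promoters: 88.6% of 11702 with at least 20 calls in every sample had a WT mean below 10%. No segment was available for Lmo2 or Fli1. At the second Tal1 start, 0 of 223 calls in DKO and 0 of 140 in WT were methylated, which allows up to 1.35% in DKO and 2.14% in WT. At the Lyl1 start the counts were 0 of 83 in DKO and 0 of 43 in WT, allowing up to 3.61% in DKO and 6.98% in WT. At the first Gata2 start they were 0 of 410 in DKO and 0 of 233 in WT, allowing up to 0.732% in DKO and 1.29% in WT. These limits, of 3 counts over each group, cover counting error only, since calls of the same read are not independent. The first Tal1 start was partly methylated, with 9.35%, 17.9% and 17.5% in DKO, against 22.7%, 19.2% and 10.7% in WT (28 to 107 calls per sample). Its groups overlapped (p = 0.5, exact permutation test).

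The second Gata2 start was methylated in DKO replicate 2 and in no other sample. There 47 of 118 calls were methylated, 39.8% (95% Wilson interval 31.5 to 48.9%, counting error only), against 0 of 132 and 0 of 49 in DKO replicates 1 and 3 and 0 of 74, 0 of 138 and 0 of 56 in WT. The methylated calls of DKO replicate 2 were spread over 17 of its 23 CpGs with a read, at most 3 at any of them. The 1 kb window around this start, chromosome 6, 88148001 to 88149000 (67 CpGs), had 0.27%, 23.1% and 1.88% in DKO, against 0%, 0.66% and 1.10% in WT. This replicate was also the DKO sample whose coverage of the genome differed most from the others, with a chi-square per degree of freedom of 117 and 81.3 against DKO replicates 1 and 3, compared with 13.3 between those. The part of this coverage in the result was not tested. Without it, the mean difference at the segment was 0 points.

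In each locus a run of 1 kb windows below 10%, taken as the mean of the 6 samples, marked the CpG-dense core. DKO samples counted towards this limit, so low DKO levels inside the runs are partly set by it. The run was 3 kb at Tal1, 8 kb at Lyl1, 4 kb at Lmo2, 3 kb at Gata2 and 3 kb at Fli1, and it held 164 to 294 CpGs. Inside the runs the level averaged 1.02% in DKO and 1.46% in WT at Tal1, 1.5% in DKO and 2.07% in WT at Lyl1, and 2.58% in DKO and 2.37% in WT at Lmo2. It averaged 3.43% in DKO and 0.70% in WT at Gata2, where DKO replicate 2 stood at 7.90%, and 0.16% in DKO and 0.25% in WT at Fli1. The groups overlapped in all 5 runs.

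Just outside the runs, where a window that gained enough methylation would fall, the levels differed more. In the 2 kb on the higher-coordinate side of the Lmo2 run (chromosome 2, 103813001 to 103815000), the level was 47.5%, 57.5% and 40.3% in DKO, against 31.6%, 17.4% and 14.6% in WT. On the same side at Lyl1 (chromosome 8, 87232001 to 87234000) it was 73.7%, 66.0% and 69.1% in DKO, against 59.3%, 53.3% and 40% in WT. Both flanks were higher in every DKO sample (p = 0.1 each, exact permutation test). The opposite held on the lower-coordinate side of the Gata2 run (chromosome 6, 88145001 to 88147000), with 15.8%, 18.7% and 13.0% in DKO, against 29.5%, 39.3% and 24.9% in WT (p = 0.1, exact permutation test). Over CpGs read in every sample the Gata2 flank averaged 14.3% in DKO and 31.6% in WT, with separate groups, and with those CpGs weighted alike 18.0% in DKO and 25.6% in WT, with overlapping groups. The Lyl1 flank averaged 74.9% in DKO and 66.1% in WT over CpGs read in every sample, with overlapping groups, and 76.8% in DKO and 67.0% in WT when they were weighted alike, with separate groups. At the other 7 flanks the DKO mean was higher by 1.14 to 13.7 points and the groups overlapped. The runs and flanks were defined after the data were seen.

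Among 1 kb windows, those tested had at least 3 CpGs and 20 calls in every sample. In the loci 283 of the 445 windows reached this (63.6%), against 33.2% of all autosomal windows. A window was called if its quasi-binomial test, moderated across all windows, gave an adjusted p below 0.05 over the 774732 autosomal windows and the groups differed by at least 10 points. In the loci 9 windows were called higher in DKO (3.18%), where the background over all autosomal windows was 0.49%. None of the 283 was called lower, against a background of 0.00723%. At an unadjusted p below 0.05, 64 were higher, 22.6% against 7.32% of all windows, and 7 were lower, 2.47% against 1.95%. The 3 DKO samples all lay above the 3 WT samples in 62 windows (21.9%, background 9.05%) and below them in 5 (1.77%, background 3.75%). The median difference was 3.00 points in the loci and 0.93 over all windows. The calls rested on a dispersion shared by all windows and were not stable. With limma on log2 ratios, 500 bp windows or the replicate number as a block, 0 windows were called. The same test gave 0, 0 and 2 calls without DKO replicates 1, 2 and 3, and 1, 3 and 1 without WT replicates 1, 2 and 3.

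By class of level, taken as the mean of the 6 samples, the difference was largest at 50 to 80%. In the 41 windows at 50 to 80%, the level was 73.3%, 75.3% and 74.5% in DKO, against 60.3%, 60.0% and 59.6% in WT, a difference of 14.4 points (SE 0.625; p = 0.1, exact permutation test). Over all 79655 autosomal windows of that class it was 6.01 points. In the 37 windows at 10 to 50%, the level was 30.3%, 29.1% and 26.7% in DKO, against 22.5%, 25.9% and 22.0% in WT. The difference was 5.23 points (SE 1.62, p = 0.1 by the exact permutation test), beside 4.99 over all windows of the class. These values sum reads over windows. The median window difference was 8.96 points in the loci and 5.16 over all windows of the class.

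Of the windows at 50 to 80%, 4 of 41 were called higher (9.76%, background 2.73%) and 18 had the 3 DKO samples above the WT range (43.9%, background 19.1%). Of those at 10 to 50%, 3 of 37 were called higher (8.11%, background 3.13%) and 11 had separate groups in that direction (29.7%, background 19.2%). The 178 windows at 80% or more averaged 93.8% ± 0.48 in DKO and 90.4% ± 0.09 in WT (SD, n = 3 each), and 32 were above in every DKO sample (18.0%, background 7.18%). The 27 windows below 10% averaged 2.24% ± 0.85 in DKO and 1.60% ± 0.51 in WT (SD, n = 3 each), and 1 was above in every DKO sample (3.70%, background 10.7%).

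**Figure D2:**
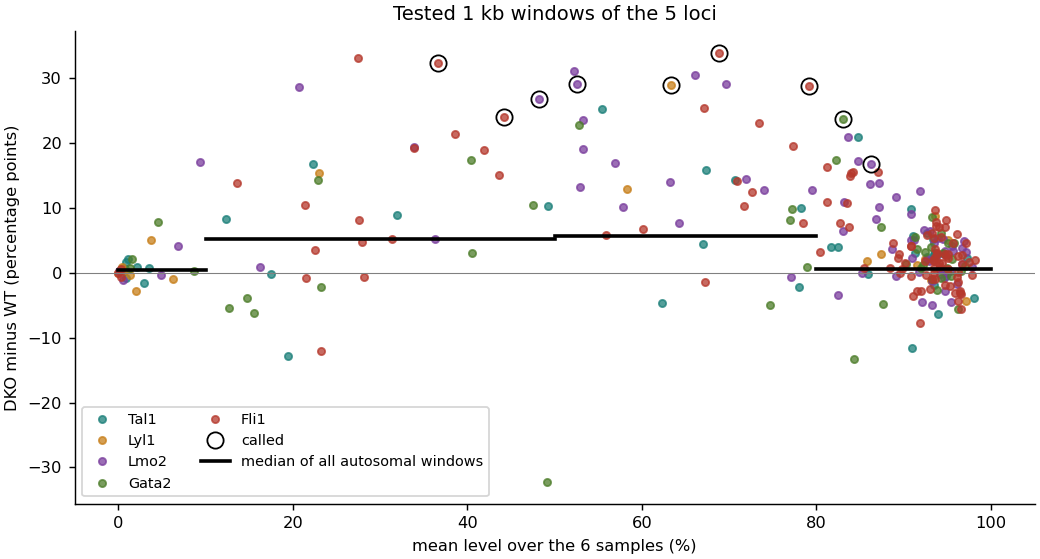
Difference in methylation level between DKO and WT (vertical axis, percentage points) against the mean level over the 6 samples (horizontal axis, percent) for the 283 tested 1 kb windows of the 5 loci, colored by locus, with the 9 called windows circled. Black lines give the median of all autosomal windows per class of level. The lowest point is a Gata2 window, at -32.3 points.

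The classes differed between loci. At 50 to 80%, the difference was 19.1 points at Lmo2 over 15 windows, 17.2 at Fli1 over 12, 18.7 at Lyl1 over 2, 8.52 at Tal1 over 7 and 3.88 at Gata2 over 5, and only the Gata2 groups overlapped. At 10 to 50%, it was 16.7 points at Lmo2 over 5 windows and 9.82 at Fli1 over 16, with separate groups in both. It was 15.3 points at Lyl1 in its only such window, 4.89 at Tal1 over 6 and -3.04 at Gata2 over 9, with overlapping groups. In that class Gata2 averaged 21.2% in DKO and 24.2% in WT, while the other 4 loci had higher DKO means.

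**Figure D3:**
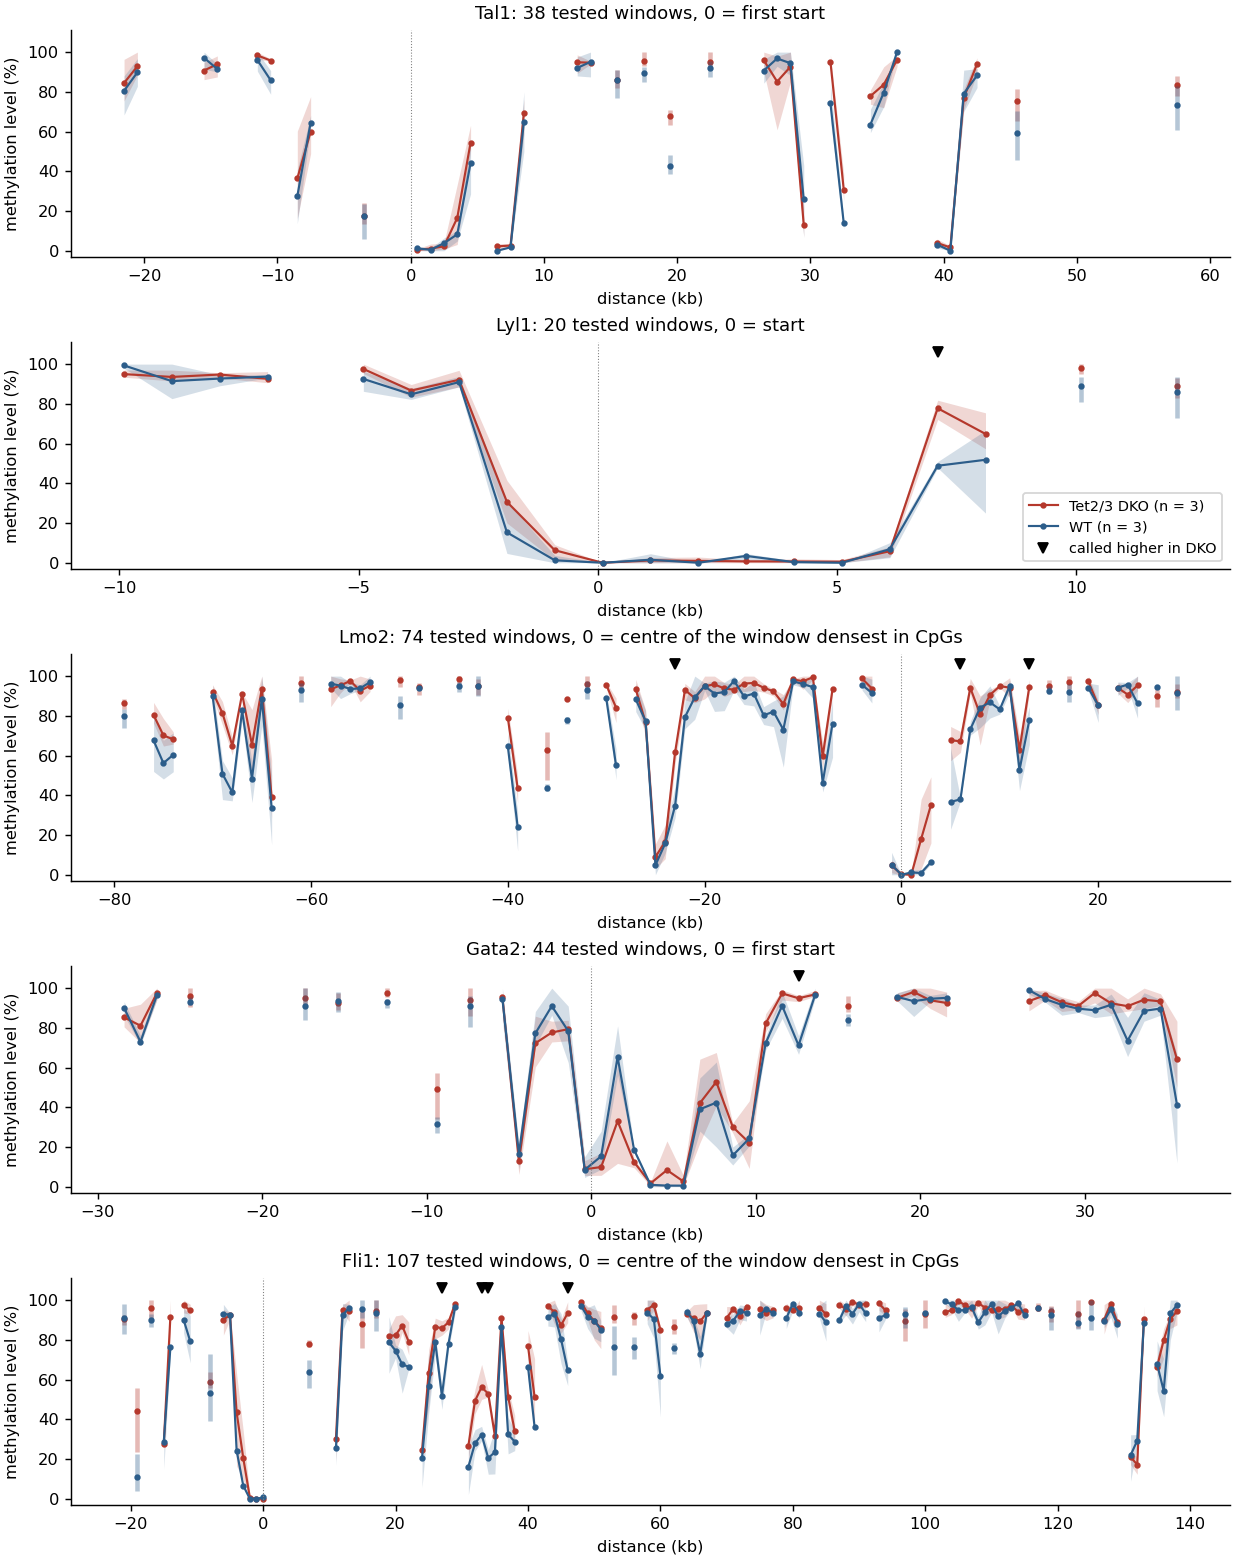
Methylation level per tested 1 kb window (vertical axis, percent) by distance from the reference point of each locus (horizontal axis, kb), with DKO in red and WT in blue. Points are means of 3 samples, shading and bars the range from lowest to highest sample, and triangles the 9 called windows: 4 at Fli1, 3 at Lmo2, 1 at Lyl1, 1 at Gata2 and none at Tal1.

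Fli1 held 4 of the 9 called windows. Positions are given from the middle of its most CpG-dense window (84 CpGs), counted towards lower coordinates, the direction in which the gene is known to be read. The windows at 27 kb (chromosome 9, 32321001 to 32322000, 12 CpGs), 33 kb (32315001 to 32316000, 16 CpGs), 34 kb (32314001 to 32315000, 16 CpGs) and 46 kb (32302001 to 32303000, 12 CpGs) were called higher. At 27 kb the level was 85.6%, 82.3% and 89.6% in DKO, against 53.8%, 56.7% and 45.0% in WT, a difference of 34.0 points (SE 4.09; adjusted p = 0.00488, quasi-binomial test). At 34 kb it was 54.6%, 51.3% and 52.6% in DKO, against 24.4%, 12.3% and 24.7% in WT (32.3 points, SE 4.19, adjusted p = 0.00461 by the same quasi-binomial test). At 46 kb, levels of 92.8%, 99.1% and 88.6% in DKO stood against 68.6%, 57.0% and 68.6% in WT. The window at 33 kb had 67.6%, 50% and 51.0% in DKO and 36.5%, 29.3% and 30.9% in WT. In each of the 4 windows the lowest DKO sample was above the highest WT sample.

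The windows at 33 and 34 kb lay in a stretch of 8 windows of low to intermediate level, 31 to 38 kb from the dense window (chromosome 9, 32310001 to 32318000, 112 CpGs). Summed over the stretch, the level was 55.2%, 50.8% and 47.2% in DKO, against 34.0%, 32.4% and 34.7% in WT. All 8 windows had a higher DKO mean and 4 had separate groups. With CpGs weighted alike the stretch averaged 49.6% in DKO and 32.4% in WT. This stretch and those at Lmo2 and Gata2 were picked from their values and were not tested. The Fli1 window with separate groups in the other direction, at 132 kb (32216001 to 32217000, 39 CpGs), had 18.0%, 21.1% and 12.3% in DKO, against 32.3%, 27.0% and 28.4% in WT. With CpGs weighted alike, the levels were 17.8% in DKO and 17.5% in WT.

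Lmo2 held 3 called windows, and in 23 of its 74 tested windows the DKO samples all lay above the WT range (31.1%, against 9.05% of all autosomal windows) while 0 had the reverse. Distances are from its most CpG-dense window (100 CpGs), counted towards higher coordinates. The window at 6 kb (chromosome 2, 103816001 to 103817000, 16 CpGs) had 72.1%, 61.6% and 67.7% in DKO, against 37.1%, 38.5% and 38.4% in WT, a difference of 29.2 points (SE 3.09; adjusted p = 0.00709, quasi-binomial test). Over the 11 CpGs read in every sample, weighted alike, it averaged 65.8% in DKO and 52.0% in WT, with separate groups. The window at -23 kb (103787001 to 103788000, 18 CpGs) had 64.9%, 55.7% and 64.3% in DKO, against 28.7%, 44.6% and 31% in WT. The window at 13 kb (103823001 to 103824000, 20 CpGs) had 93.3%, 92.7% and 98.2% in DKO, against 84.6%, 83.3% and 65.7% in WT. WT replicate 3 set much of the last difference, which was 10.8 points without it and 16.9 with all samples.

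The window at 6 kb lay beyond the unmethylated run, which ended at 103813000, and beyond the 2 kb flank given above. A stretch picked from its values reached from the last window of the run past this window. From 2 to 7 kb (chromosome 2, 103812001 to 103818000, 63 CpGs), the level was 64.8%, 57.6% and 58.3% in DKO, against 37.7%, 40.3% and 29.9% in WT. Its first window, the last of the unmethylated run, had 38%, 12.9% and 2.86% in DKO, against 2.63%, 0% and 0% in WT. There the DKO samples differed widely among themselves. A second stretch far upstream, from -69 to -66 kb (chromosome 2, 103741001 to 103745000, 54 CpGs), had 71.7%, 78.6% and 83.5% in DKO, against 61.0%, 57.5% and 59.7% in WT.

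Lyl1 held the called window next to its unmethylated run, 7.1 kb after the start (chromosome 8, 87232001 to 87233000, 22 CpGs). Its level was 72.1%, 81.8% and 79.4% in DKO, against 50.9%, 47.8% and 47.8% in WT, a difference of 28.9 points (SE 3.09; adjusted p = 0.0368, quasi-binomial test). Over the 9 CpGs read in every sample, weighted alike, it averaged 80.8% in DKO and 67.2% in WT, with separate groups. Only 2 other Lyl1 windows had separate groups. At 10.1 kb (87235001 to 87236000, 10 CpGs) the level was 100%, 95.2% and 98.5% in DKO, against 93.0%, 93.5% and 81.0% in WT. At -9.9 kb (87215001 to 87216000, 16 CpGs) it was lower in DKO, at 93.4%, 97.0% and 94.4%, against 100%, 98.0% and 100% in WT.

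Gata2 held the called window with the smallest adjusted p of the 9, 12.6 kb after the first start (chromosome 6, 88156001 to 88157000, 20 CpGs). The level was 96.2%, 93.2% and 95.3% in DKO, against 70.9%, 66.7% and 75.9% in WT, a difference of 23.7 points (SE 2.83; adjusted p = 0.00237, quasi-binomial test). Its adjusted p by that test was 0.0284 to 0.0982 when each sample was left out. Over the 12 CpGs read in every sample, weighted alike, it averaged 91.0% in DKO and 76.0% in WT, with overlapping groups. At 8.6 kb (88152001 to 88153000, 22 CpGs) the level was 27.1%, 32.1% and 31.1% in DKO, against 20.0%, 16.3% and 10.9% in WT. The window at 32.6 kb (88176001 to 88177000, 10 CpGs) lay past the placed promoter segment of the neighbour Dnajb8 (88172012 to 88172311). Its level was 94.5%, 88.4% and 89.8% in DKO, against 85.3%, 65.5% and 69.8% in WT. The window at 8.6 kb, with CpGs weighted alike, averaged 43.4% in DKO and 19.6% in WT, with separate groups, and that at 32.6 kb 88.1% in DKO and 74.9% in WT, with overlapping groups. Neither was called (adjusted p = 0.449 and 0.282, moderated quasi-binomial test).

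Near the first Gata2 start the difference ran the other way. The window at 1.6 kb (chromosome 6, 88145001 to 88146000, 19 CpGs), picked from its value, had 25.8%, 61.5% and 11.8% in DKO, against 58.8%, 81.0% and 56.1% in WT. This was the most negative difference among the 283 windows, -32.3 points, and it was not called (adjusted p = 0.15, moderated quasi-binomial test). DKO replicate 2 lay above 2 of the WT samples. Over the 3 windows from 0.6 to 2.6 kb (88144001 to 88147000, 137 CpGs) the level was 12.2%, 17.8% and 9.82% in DKO, against 16.9%, 33.6% and 17.7% in WT. With CpGs weighted alike it was 13.9% in DKO and 17.5% in WT, a smaller gap.

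Tal1 held none of the called windows. Its 3 windows with separate groups and the widest differences lay after the first start. At 19.5 kb (chromosome 4, 114748001 to 114749000, 9 CpGs) the level was 69.7%, 63.4% and 71.1% in DKO, against 41.5%, 38.8% and 48.0% in WT, a difference of 25.3 points (SE 3.61; adjusted p = 0.185, quasi-binomial test). At 31.5 kb (114760001 to 114761000, 8 CpGs) it was 93.0%, 98.6% and 94.1% in DKO, against 65.6%, 84.2% and 73.1% in WT. At 32.5 kb (114761001 to 114762000, 16 CpGs) it was 38.5%, 28.8% and 25% in DKO, against 10.7%, 15.7% and 15.4% in WT. This window averaged, with CpGs weighted alike, 16.1% in DKO and 9.64% in WT, with overlapping groups, while the window at 19.5 kb averaged 72.1% in DKO and 55.3% in WT, with separate groups. These windows held 25 to 118 calls per sample, and Tal1 had the lowest share of windows deep enough to test among the 5 loci, 38 of 85.

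Enhancers of these genes are named in the literature by their distance from the gene start in kb. The level was read in 3 kb spans at 10 such distances, taken from general knowledge. They were measured from the first placed start at Tal1 and Gata2 and from the most CpG-dense window at Lmo2 and Fli1. The starts used in the literature may differ, so a span may miss the enhancer itself. At Lmo2 -75 kb the level was 76.1%, 74.1% and 69.8% in DKO, against 58.8%, 59.6% and 65.3% in WT. At Lmo2 -12 kb it was 93.3%, 93.1% and 92.4% in DKO, against 79.8%, 85.9% and 90.7% in WT. At Gata2 9.5 kb, an enhancer needed for blood stem cells to emerge, it was 47.7%, 47.6% and 56.6% in DKO, against 44.1%, 45.3% and 30.8% in WT. In these 3 spans DKO and WT samples did not overlap (p = 0.1 each, exact permutation test, and 0.25 after adjustment over the 10 spans). The share of such spans over the genome was not computed. In the central 1 kb the groups overlapped at all 3 distances. There Lmo2 -75 kb averaged 70.2% in DKO and 56.2% in WT, and Lmo2 -12 kb 85.9% in DKO and 73.1% in WT. The difference at Gata2 9.5 kb was 10.6 points with all samples and 5.97 without WT replicate 3. That at Lmo2 -12 kb was 7.44 points with all samples and 4.59 without WT replicate 1.

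At Gata2 -2.8 kb the samples were also apart, in the other direction, with 39.0%, 27.4% and 31.8% in DKO, against 60.1%, 46.5% and 49.2% in WT (p = 0.1, exact permutation test). The difference was -19.2 points over all reads, -7.92 points over CpGs read in every sample and -2.45 points with those CpGs also weighted alike, and the groups overlapped in both of the last. At Tal1 19 kb, the span of a stem cell enhancer, the level was 81.2%, 74.8% and 83.3% in DKO, against 56.8%, 58.1% and 80% in WT, and WT replicate 3 overlapped the DKO range. With CpGs weighted alike it averaged 85.0% in DKO and 70.5% in WT, with separate groups. Its central 1 kb had 72.0%, 34.2% and 78.3% in DKO, against 29.4%, 33.3% and 76.2% in WT, with overlapping groups. The span contains the Tal1 window at 19.5 kb described above, so the 2 results share reads.

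The remaining 5 spans overlapped between groups. Tal1 -4 kb averaged 35.6% in DKO and 35.0% in WT, Fli1 -15 kb 42.2% in DKO and 41.4% in WT, and Fli1 12 kb 72.4% in DKO and 69.5% in WT. Lmo2 -25 kb averaged 33.1% in DKO and 36.4% in WT, and Tal1 40 kb 11.3% in DKO and 7.96% in WT. In the central 1 kb, Tal1 40 kb was nearly unmethylated, with 2.12%, 1.90% and 0% in DKO and 0% in each WT sample. The central 1 kb at Gata2 9.5 kb stood at 9.89%, 0% and 13.3% in DKO, against 0%, 5.77% and 5.81% in WT. That at Lmo2 -25 kb stood at 15.6%, 3.08% and 8.33% in DKO, against 5.71%, 0% and 8.70% in WT. These 3 low points were present in both groups, and their groups overlapped.

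**Figure D4:**
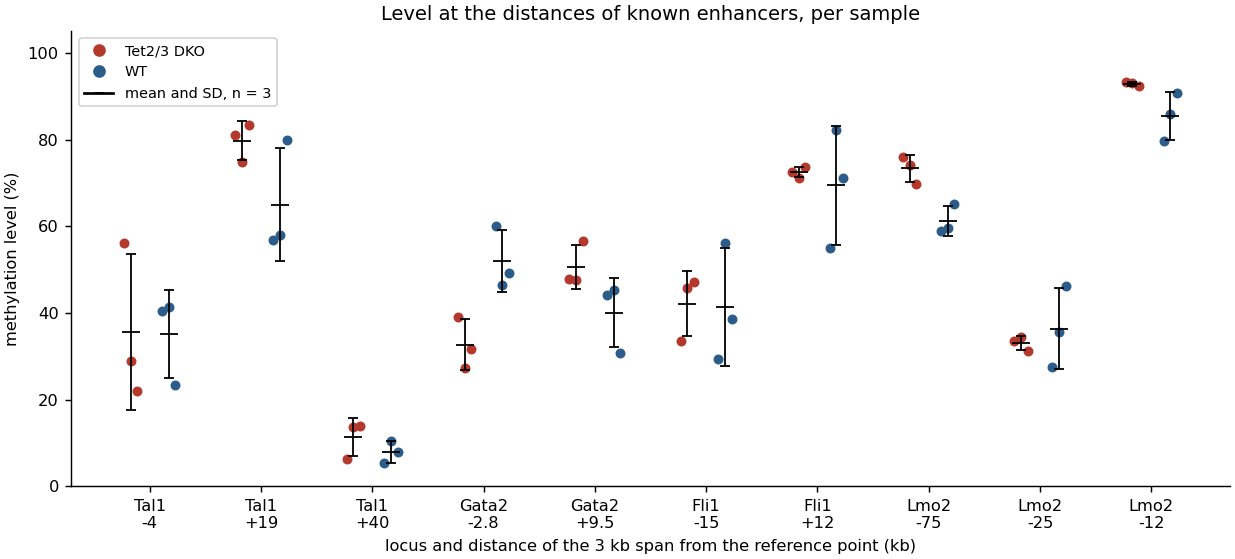
Methylation level (vertical axis, percent) in 3 kb spans at the distances in kb by which enhancers of Tal1, Gata2, Fli1 and Lmo2 are named (horizontal axis), in the 3 DKO samples (left of each pair, red) and 3 WT samples (right, blue), with the mean and SD in black. DKO samples lie above WT samples at Gata2 9.5, Lmo2 -75 and Lmo2 -12 kb and below them at Gata2 -2.8 kb.

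The promoters of partner genes were read in the same way. From a list of 13 genes, 16 promoter segments of 11 genes could be placed, and 9 of the 16 had no methylated call in any sample. Ets1 and Gata1 were not placed. Those with none were at Elf1, Etv6 and Gata3, at Tcf3 and Ssbp2, at the first start of Ldb1 and of Tcf12, and at the 2 later starts of Lmo4. Some of these had few calls, with 3 to 60 per sample at Ssbp2 and 5 to 85 at Gata3. The share of all promoters with no methylated call was not computed. Runx1, which completes the heptad with Erg, had 0% in each DKO sample and 1.56%, 0% and 0% in WT. The Erg segment (16 CpGs) had 19.1%, 30.0% and 37.1% in DKO, against 7.50%, 11.3% and 5.88% in WT (17 to 89 calls per sample; p = 0.1, exact permutation test). This direction depended on which CpGs were read. Over the Erg CpGs with a call in every sample the mean was 8.33% in DKO and 23.8% in WT, with overlapping groups (p = 0.7, exact permutation test). Among 11702 promoters with at least 20 calls in every sample, the median of the group means was 0.32% in DKO and 0% in WT. The median difference was 0 points. In 3.82% of them the DKO samples all lay above the WT range and in 0.718% below it.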

How the data were processed

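The authors deposited, per CpG and sample, raw counts of total and of methylated reads, neither normalised nor pooled, and levels were computed here from them. Per the submitters' processing notes, BSMAP 2.74 and the build mm9 were used. How reads were trimmed, deduplicated and filtered is not given in the sources. The table held 0 columns of other samples, and no sample was dropped or imputed.

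Counts were summed over CpGs of 1 kb windows or spans in Python 3.11.15 (numpy 2.4.6, scipy 1.17.1, pandas 2.3.3). A read counts at each CpG it covers. All 774732 autosomal windows with at least 3 CpGs and 20 calls per sample entered a quasi-binomial test with Pearson dispersion, moderation of the dispersion as in limma (prior of 23.7 degrees of freedom), a floor of 1 and Benjamini-Hochberg adjustment. Single values were compared by two-sided exact permutation tests. Alternatives, among them limma 3.58.1 in R 4.3.3, are given at the end. Weighting CpGs alike used CpGs with a call in every sample.

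Promoters were placed on mm9 by the spacing of their CpGs, at least 6 per segment, in 18234 of 32851 segments placed at 1 position, and 99.9% of neighbouring pairs kept their order. The table held segments for Tal1, Lyl1 and Gata2.

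Named windows were all called ones and, where a locus had fewer than 3, those with separate groups and the largest difference, up to 3 per locus. Members and lists were chosen with earlier results of these data known. Deviations of same-numbered samples correlated weakly, at 0.0033 to 0.0036 over windows, against -0.0020 to -0.0014 for differently numbered samples. Deviations cancel out within a group, so these ranges are not independent of each other. Whether the replicate numbers pair the samples was not tested. In coverage of the genome, no 2 replicates of a group agreed within sampling noise, with a chi-square per degree of freedom of 11.8 to 117.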

Additional observations from a re-analysis of the deposited data

How the results depend on the processing

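Against 9 called windows, 1 was called with a minimum of 10 calls per sample, 1 with 40, 0 with 500 bp windows, 0 with limma on log2 ratios, 55 with Fisher's exact test on pooled reads (52 higher, 3 lower) and 9 with no minimum difference. Leaving out each sample gave 0 to 3 calls. At an unadjusted p below 0.05, limma gave 36 higher and 7 lower windows and 500 bp windows 31 and 5. The replicate number as a block gave 0 calls, with 53 higher and 10 lower windows at an unadjusted p below 0.05. For levels the block took the mean of same-numbered differences, which equals the difference of group means and so could not change it. Its sign-flip p was 0.25 at the least.

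Every level alternative kept the sign at Lmo2 (5.12 to 8.34 points when a sample was left out) and Fli1 (4.86 to 5.23), and so did those of the 4 classes of windows. The sign of some small differences changed when a sample was left out. The range was -1.61 to 2.44 points for Tal1, -0.037 to 4.55 for Lyl1 and -0.22 to 1.25 for Gata2. At the second Gata2 promoter it was 0 to 19.9, with no change of sign. It was -6.08 to 0.12 at the first Tal1 promoter, -9.61 to 7.43 at Tal1 -4 kb, -5.17 to 8.19 at Fli1 -15 kb, -4.28 to 9.41 at Fli1 12 kb, -7.77 to 1.60 at Lmo2 -25 kb and -4.38 to 8.60 at the lower side of the Tal1 run. With only CpGs read in every sample the difference turned to -15.5 at Erg, -4.92 at Fli1 -15 kb, -1.44 at Fli1 12 kb, -6.07 at the lower side of the Tal1 run and -0.23 at that of Lyl1. With CpGs weighted alike it turned to -9.92 at Erg, -0.61 at Fli1 12 kb and 8.95 at Lmo2 -25 kb. In 1 kb spans it turned to -0.67 at Fli1 -15 kb and 4.19 at Lmo2 -25 kb. The cause was not tested. The flanks of the runs, the stretches, counts of windows with separate groups and the dense windows used as reference points were chosen after seeing the data. In the loci, 162 windows had under 20 calls in some sample and were not tested.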
